A study of Mus musculus with 12 samples.

Results

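The myostatin and activin pathway was followed here through 10 genes in skeletal muscle and brain of mice with cancer cachexia. They were picked by name as a pathway rather than by a threshold on any value: the ligand genes Mstn and Inhba, the receptor genes Acvr2a, Acvr2b and Acvr1b, the secreted follistatin family genes Fst, Fstl3 and Fstl1, and the intracellular mediators Smad3 and Smad7. The choice was made with earlier results of these data known. All 10 were found among the 55416 gene identifiers of the count tables. Cachexia had been induced in male BALB/c mice, labelled as 7 weeks old, by a subcutaneous abdominal injection of CT-26 cells, an established line of mouse colon carcinoma, and tissue of the tumour-bearing mice was taken on day 25. Healthy male BALB/c mice of the same labelled age, without tumour cells, served as controls, and no genetic modification is named for either group. The day on which the controls were sampled is not given in the sources used here, so a difference in collection day cannot be told apart from cachexia. Each group consisted of 3 mice, and each mouse gave 1 library from gastrocnemius, a fast calf muscle, and 1 from hypothalamus, so that 12 RNA sequencing libraries fell into 4 groups. Mice of a group are numbered 1 to 3 below, and values are listed in that order.

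Myostatin, the product of Mstn, is a secreted member of the TGF-β superfamily that restrains the growth of skeletal muscle. Myostatin and the activins, which are dimers of inhibin β subunits, bind the type II receptors encoded by Acvr2a and Acvr2b, which recruit a type I receptor such as the Acvr1b product ALK4. The active receptor complex phosphorylates Smad2 and Smad3, which enter the nucleus with Smad4, whereas follistatin traps the ligands outside the cell and Smad7 blocks the receptor.

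The promoters of the myostatin gene and of the 3 members called changed in muscle (Acvr1b, Fstl1 and Smad3) are shown as the sequence around their annotated starts. Each is the RefSeq window on GRCm38.p6 from 250 bases before to 50 bases after the start that RefSeq gives, printed 5′ to 3′ on the gene's strand, and such a window was found for 8 of the 10 members; Fst and Smad7 had no entry. Capitals mark matches to 4 motifs searched on both strands: the Smad box CAGAC, the FoxO motif GTAAACA, the E-box CACGTG and the palindromic glucocorticoid response element. The Mstn window lies at chr1:53061390-53061689 on the plus strand, the Acvr1b window at chr15:101173822-101174121 on the plus strand, the Fstl1 window at chr16:37776805-37777104 on the plus strand and the Smad3 window at chr9:63757945-63758244 on the minus strand. For Acvr1b and Fstl1 the RefSeq start lies downstream of the GENCODE gene start given with their values below, so most of the Fstl1 window is inside the GENCODE gene.
Mstn: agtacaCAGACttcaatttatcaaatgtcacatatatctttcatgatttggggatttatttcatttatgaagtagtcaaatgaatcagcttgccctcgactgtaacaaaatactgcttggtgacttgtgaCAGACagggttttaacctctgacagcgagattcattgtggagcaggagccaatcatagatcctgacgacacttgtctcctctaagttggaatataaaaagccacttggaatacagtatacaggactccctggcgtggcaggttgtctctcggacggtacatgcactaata
Acvr1b: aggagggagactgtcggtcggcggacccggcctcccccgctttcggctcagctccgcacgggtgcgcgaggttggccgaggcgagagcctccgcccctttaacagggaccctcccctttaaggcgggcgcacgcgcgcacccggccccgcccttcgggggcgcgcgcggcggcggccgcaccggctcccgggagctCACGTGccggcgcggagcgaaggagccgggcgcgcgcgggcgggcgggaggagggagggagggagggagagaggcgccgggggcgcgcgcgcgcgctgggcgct
Fstl1: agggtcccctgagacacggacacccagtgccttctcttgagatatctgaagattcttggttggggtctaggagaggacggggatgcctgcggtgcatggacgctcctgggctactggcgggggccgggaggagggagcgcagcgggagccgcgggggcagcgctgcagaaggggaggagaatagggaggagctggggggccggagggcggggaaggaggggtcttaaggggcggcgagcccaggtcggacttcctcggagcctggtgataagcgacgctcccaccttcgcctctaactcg
Smad3: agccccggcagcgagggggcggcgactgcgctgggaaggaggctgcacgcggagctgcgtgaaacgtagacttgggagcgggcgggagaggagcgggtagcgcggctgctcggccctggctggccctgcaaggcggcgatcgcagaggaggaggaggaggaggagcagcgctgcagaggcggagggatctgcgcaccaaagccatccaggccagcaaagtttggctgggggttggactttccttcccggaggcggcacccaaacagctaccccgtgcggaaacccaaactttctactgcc
The Mstn window held 2 Smad boxes, starting 244 and 120 bases before the start, and had a GC content of 41.3%. The Acvr1b window held 1 E-box, which reads the same on both strands, 54 bases before the start, in a sequence with 79.7% GC. Neither the Fstl1 window (66.7% GC) nor the Smad3 window (67.7% GC) held any of these letters. Among the members not printed, Acvr2a and Acvr2b had 1 Smad box each, Fstl3 had 2 and Inhba had no match. Of 32851 promoter windows of the same length, 49.6% held a Smad box, 7.15% the E-box, 3.65% the FoxO motif and 0.00913% the glucocorticoid response element, so that a Smad box is common in such windows.

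The libraries held between 26015741 and 52535761 counts assigned to genes. The labelled tissues matched their markers: the summed level of 8 muscle fibre markers was 67115 to 155957 CPM (counts scaled for library depth) across the gastrocnemius libraries and 39.3 to 60.6 CPM across the hypothalamus libraries, while all 10 hypothalamic neuropeptide markers stayed below 1 CPM in every gastrocnemius library. Marker transcripts of other cell types also differed between cachectic and normal muscle. Of 8 fibroblast markers, 7 were lower in cachexia, with a summed level of 348.1 to 474.4 CPM against 930.7 to 1477 CPM. Of 5 tendon cell markers, 4 were lower and 1 was higher, and their sum was 41.5 to 71.9 against 167.2 to 308 CPM. All 7 neutrophil markers tested, of 9 in the list, were higher, with a sum of 22.5 to 151 against 0.584 to 0.960 CPM. Apart from Csf3r, the tested ones lay at 0.178 CPM or less in normal muscle. They reached the minimum count for testing only through the cachectic group, so this tally was largely set by that filter. The part of these cell types in the changes below was not tested. In bulk tissue, fewer cells of a type and less RNA per cell cannot be told apart.

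TPM, a unit scaled for transcript length and depth, allow the members to be ranked within a group. In normal gastrocnemius Mstn led with a mean of 33.0 ± 12.8 TPM (SD, n = 3), ahead of Smad3 at 19.5 ± 3.03 TPM, and the ranges of these neighbours overlapped. Fstl1 followed at 13.4 ± 1.67 TPM and was separated from both neighbours. Acvr1b at 8.84 ± 2.03 TPM and Acvr2a at 6.49 ± 1.49 TPM overlapped. Next came Fst (1.52 TPM), Smad7 (1.43 TPM), Acvr2b (1.26 TPM) and Fstl3 (1.08 TPM), each overlapping the next, and Inhba was lowest at 0.290 ± 0.130 TPM, below all of them. In normal muscle the receptor Acvr2a was thus present at a higher level than its relative Acvr2b, without overlap. In cachectic gastrocnemius the order changed: Acvr1b, at 30.1 ± 11.7 TPM, stood next to Mstn at 35.3 ± 3.31 TPM, with overlapping ranges, and Smad3 came next at 12.1 ± 2.72 TPM.

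In hypothalamus the same genes ranked differently. Acvr1b led in both groups, at 28.5 ± 1.38 TPM in normal and 30.4 ± 2.03 TPM in cachectic mice, followed by Acvr2a at 10.2 ± 0.778 and 10.0 ± 0.379 TPM. Smad7, Fstl1 and Smad3 lay between 4.83 and 6.83 TPM in group means. Fstl3 and Acvr2b had means of 1.31 to 1.82 TPM, and Fst and Inhba means of 0.623 to 1.22 TPM. Mstn was last: its 3 normal libraries held 1 to 3 counts each, 5 in all, and its 3 cachectic libraries 3 to 7 counts, 13 in all, so it was too rare in hypothalamus to be tested.

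**Figure D1:**
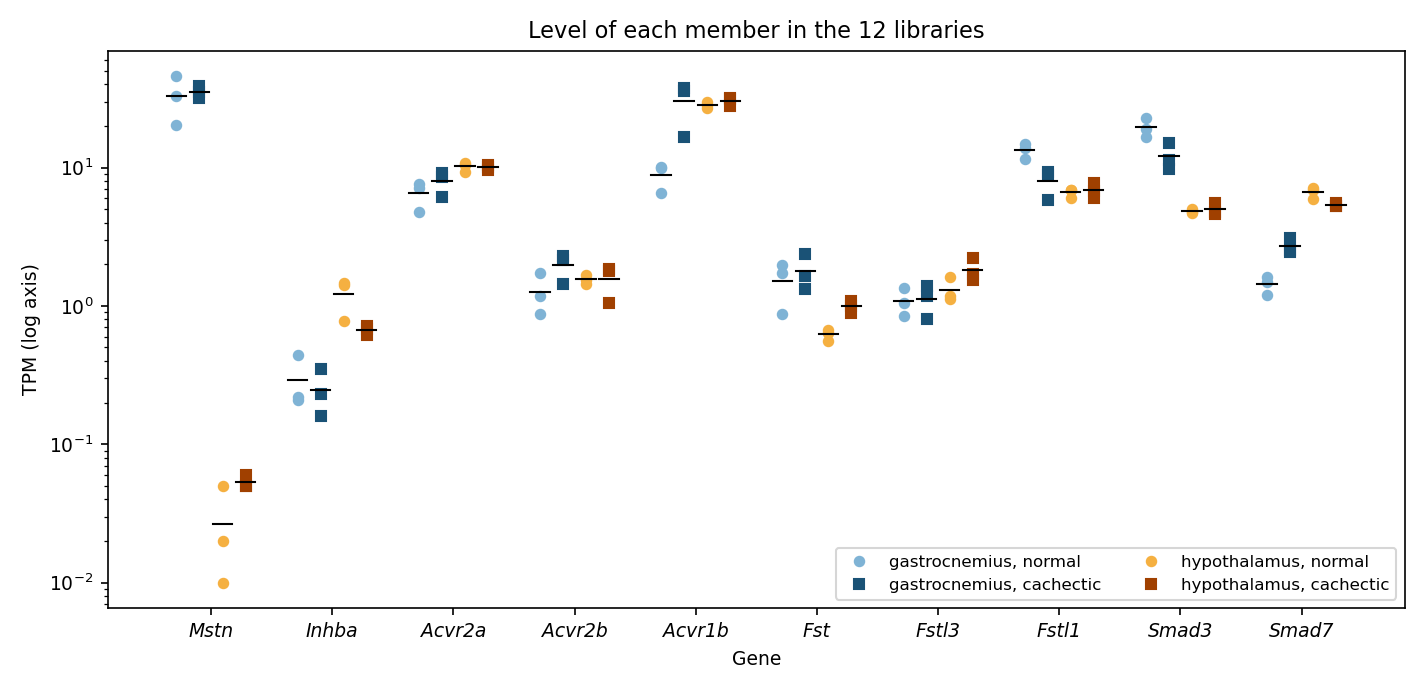
Level of each member in TPM (log axis) in the 12 libraries, with 1 point per library and a bar at each group's mean of 3. Mstn lay at 20.2 to 45.8 TPM in gastrocnemius and at 0.01 to 0.06 TPM in hypothalamus, and Acvr1b at a mean of 8.84 TPM in normal gastrocnemius and 30.1 TPM in cachectic gastrocnemius.

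Differences between the normal tissues were tested with edgeR's quasi-likelihood test after trimmed-mean (TMM) scaling, with Benjamini-Hochberg adjustment over all genes, and "called" means an adjusted p under 0.05. So different were the tissues that 86% of the 17807 genes tested were called, and the 8 of 10 members called are near that share. By direction 7 were higher and 1 lower in gastrocnemius, beside 38.7% of all genes called higher and 47.3% lower. This split was not near the background, and it depended on the scaling, as given below. The ranges in TPM did not overlap for 8 members, as for 89.8% of all genes. These are not the same 8 as those called: Acvr2b and Fstl3 overlapped in TPM, and Acvr1b and Inhba did not. Mstn was higher in gastrocnemius by 11.79 ± 0.44 on the log2 scale (SE, adjusted p = 7.84e-09). This size rests on 5 hypothalamic counts and became 12.48 without the hypothalamus of normal mouse 3. Its SE was derived from the test statistic and cannot be relied on at so few counts. Smad3 was higher by 3.54 ± 0.10 (adjusted p = 1.39e-09), Fst by 2.85 ± 0.29 (adjusted p = 1.19e-05) and Fstl1 by 2.71 ± 0.09 (adjusted p = 4e-09). Smad7 was lower in gastrocnemius, by a log2 difference of -0.58 ± 0.11 (adjusted p = 0.00109). These 5 directions were the same when library totals or TPM were used instead, but the sizes were not, and the median of all genes, -0.23 after TMM, became -1.60 under library totals and -1.20 in TPM. With library totals the differences were 10.48 for Mstn, 2.17 for Smad3, 1.49 for Fst, 1.34 for Fstl1 and -1.94 for Smad7. Acvr2a, Acvr2b and Fstl3 were called higher with TMM, by 0.87, 1.3 and 1.35. They turned to -0.49, -0.06 and -0.02 with library totals and to -0.64, -0.25 and -0.20 with TPM. Acvr2a was then called lower with edgeR on library totals (adjusted p = 0.00759) and with limma on TPM (adjusted p = 0.00653). Acvr2b and Fstl3 were called with neither. Acvr1b and Inhba, at log2 differences of -0.16 and -0.67 with TMM, were not called (adjusted p = 0.198 and 0.0669), and both were called lower in gastrocnemius with library totals (-1.53 and -2.03) and with TPM (-1.66 and -1.11).

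In gastrocnemius, the comparison of cachectic with normal mice asked how the pathway's transcripts stood in the wasting muscle. Acvr1b rose 2.63-fold, Fstl1 fell 2.23-fold and Smad3 fell 2.06-fold, while Mstn itself did not pass the test. Of the 10 members, all tested, 3 were called, 1 higher and 2 lower; among all 14265 genes tested 38% were called (19.6% higher and 18.3% lower), so the members' share was no higher than the background. Unadjusted p was below 0.05 for 5 members, and for the same number the cachectic and normal ranges did not overlap, which held for 51.7% of all genes. The median log2 fold change of the members was -0.19, beside -0.00 for all genes tested.

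Mstn, on chromosome 1 (53061640 to 53068079, GRCm38, plus strand), measured 71.5, 71.8 and 80.9 CPM in the cachectic mice and 83.4, 122.6 and 61.3 CPM in the normal mice. The normal mice spread more widely, and normal mouse 3 lay below and normal mouse 2 above every cachectic mouse. The log2 fold change was -0.25 ± 0.23 (adjusted p = 0.412), and its sign turned with TPM (0.17) and without normal mouse 2 (0.04).

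Gdf11, the closest relative of Mstn in sequence, encodes a ligand of the same receptors and showed a different result. It measured 1.48, 1.63 and 1.64 CPM in cachectic muscle against 16.1, 19.5 and 11.7 CPM in normal muscle, so that the groups were far apart. The fall was 9.98-fold, a log2 fold change of -3.32 ± 0.22 (adjusted p = 0.000102), and it was the largest among the 8 ligand genes tested. The log2 fold change of Gdf11 was -2.08 with TPM, where the added constant of 0.5 weighs on low values, and remained called.

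Inhba, the gene of the activin A subunit (chromosome 13, 16011851 to 16031621, plus strand), was the least abundant member in muscle. It measured 1.08, 0.736 and 1.05 CPM in cachectic and 2.37, 1.14 and 1.67 CPM in normal mice, from 19 to 65 counts per library. All 3 cachectic values were below all 3 normal values, yet the log2 fold change of -0.84 ± 0.32 was not called (adjusted p = 0.0716). It crossed the threshold without normal mouse 2 (-1.07, adjusted p = 0.0422) and was -0.08 with TPM, where the groups overlapped. Muscle Inhba lay at 0.16 to 0.44 TPM, below the added constant of 0.5, which shrinks a change. Inhbb, the gene of the activin B subunit, was higher in cachectic mice: 6.48, 3.64 and 3.80 CPM in cachectic against 0.986, 2.02 and 1.21 CPM in normal muscle. Inhbb rose 3.33-fold, a log2 fold change of 1.73 ± 0.33 (adjusted p = 0.00506); the changes of Inhba and Inhbb were not tested against each other. Inhba overlaps 2 genes annotated on the opposite strand, and the sources used here do not give the strand setting of the counting.

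**Figure D2:**
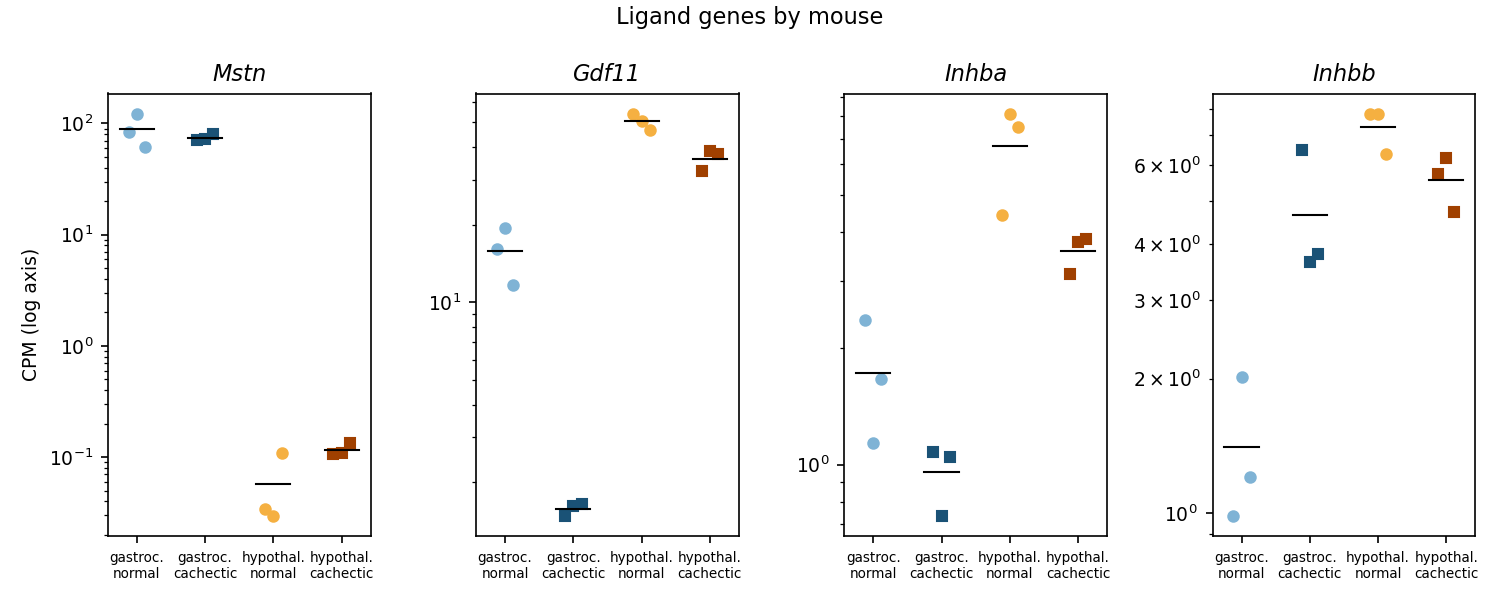
Level of 4 ligand genes in CPM (log axes with different ranges), 1 point per mouse and a bar at the mean of 3; CPM were scaled within each tissue, so levels are compared within a tissue only. In gastrocnemius Mstn overlapped between groups, Gdf11 and Inhba were lower in all 3 cachectic mice and Inhbb was higher in all 3, and in hypothalamus Gdf11, Inhba and Inhbb were lower in all 3 cachectic mice.

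Among the receptor genes Acvr1b was the member that changed. Acvr1b (chromosome 15, 101174067 to 101213684, plus strand) measured 118.8, 136.6 and 64.5 CPM in cachectic and 42.9, 45.6 and 33.1 CPM in normal muscle. Cachectic mouse 3 was the lowest of its group and still above every normal mouse. The log2 fold change was 1.39 ± 0.27 (adjusted p = 0.00491), and ranged from 1.17 to 1.66 when each mouse was left out in turn. The type II receptor genes did not pass the test. Acvr2a measured 34.9, 45.3 and 31.0 CPM in cachectic and 42.5, 42.1 and 31.8 CPM in normal muscle, with overlapping groups (log2 fold change -0.07 ± 0.18, adjusted p = 0.791). Acvr2b measured 3.66, 3.33 and 2.90 CPM against 3.51, 3.56 and 2.17 CPM, again overlapping (0.10 ± 0.23, adjusted p = 0.747). Acvr1b spans a microRNA gene, Mir6962, on its own strand, and Acvr2a overlaps Orc4 on the opposite strand.

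Of the follistatin family, only Fstl1 was called in muscle. Fstl1 encodes a secreted glycoprotein that carries a follistatin-like domain (chromosome 16, 37776873 to 37836514, plus strand). It measured 22.0, 17.6 and 29.5 CPM in cachectic and 53.3, 51.9 and 49.2 CPM in normal mice. The normal values were tightly grouped and all above the cachectic ones, and the log2 fold change was -1.16 ± 0.18 (adjusted p = 0.00223). Fstl1 also had the smallest p of the 10 members in this tissue. With TPM the log2 fold change was -0.74 and still called. The fibroblast and tendon marker sums given above were lower in the same 3 mice, and their part in the Fstl1 result was not tested.

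Fst, the gene of follistatin, measured 2.50, 2.98 and 2.66 CPM in cachectic and 3.21, 3.81 and 1.88 CPM in normal muscle. Normal mouse 3 lay below all cachectic mice, the groups overlapped and the log2 fold change was -0.13 ± 0.27 (adjusted p = 0.716). Fstl3, a further activin and myostatin binding protein, measured 1.63, 1.08 and 1.67 CPM against 1.35, 2.16 and 1.99 CPM, with overlap (-0.31 ± 0.27, adjusted p = 0.398). Fstl3 had 28 to 77 counts per muscle library, and it overlaps Prss57 on the opposite strand.

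Smad3, the mediator that carries the signal to the nucleus (chromosome 9, 63646767 to 63757994, minus strand), measured 41.2, 66.5 and 44.2 CPM in cachectic and 95.3, 117.7 and 99.2 CPM in normal muscle. Every cachectic mouse was below every normal mouse. The log2 fold change was -1.04 ± 0.20 (adjusted p = 0.00462), -0.68 with TPM and still called. The partner genes did not follow Smad3. Smad2 measured 11.4, 9.25 and 8.28 CPM against 11.4, 11.5 and 10.5 CPM and was not called (-0.20 ± 0.15, adjusted p = 0.318). Smad4, the common partner, measured 63.4, 62.3 and 58.6 CPM in cachectic against 41.5, 38.9 and 40.2 CPM in normal muscle and rose 1.53-fold (0.61 ± 0.11, adjusted p = 0.00319).

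Smad7, the inhibitory Smad and itself a textbook target of Smad3, measured 6.67, 6.93 and 7.29 CPM in cachectic and 6.10, 5.28 and 5.08 CPM in normal muscle. All 3 cachectic values were above all 3 normal ones, and the log2 fold change of 0.34 ± 0.14 was not called (adjusted p = 0.0884). The call depended on the scaling: Smad7 passed with library totals (0.54, adjusted p = 0.0395) and with TPM (0.73, adjusted p = 0.0147). In this tissue library totals moved the median of all genes to 0.20 and TPM to 0.28, and the share of called genes that were higher went from 51.7% with TMM to 70.4% with library totals and 81.5% with TPM. Summed muscle fibre markers were 120945 to 155957 CPM in normal libraries and 67115 to 113037 CPM in cachectic ones, and 2 of the 8 were called lower; their part in the Smad7 result was not tested.

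**Figure D3:**
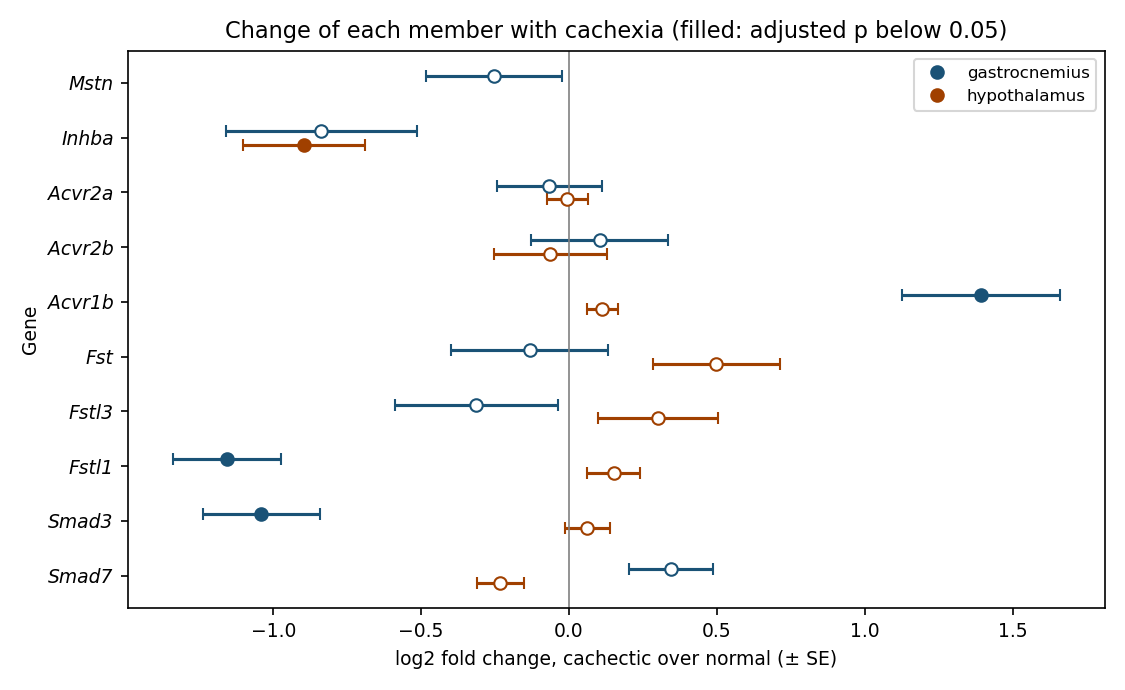
Log2 fold change of each member, cachectic over normal, with its standard error, in gastrocnemius and hypothalamus (3 against 3 mice each); filled points had an adjusted p below 0.05. In gastrocnemius Acvr1b stood to the right of 0 and Fstl1 and Smad3 to the left, and in hypothalamus Inhba was the filled point; Mstn was not tested in hypothalamus.

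In hypothalamus Inhba fell 1.86-fold in the cachectic mice and was the single member called among the 9 tested; 8.77% of the 17961 genes tested were called (3.94% higher and 4.83% lower). Unadjusted p was below 0.05 for 3 members, and the groups did not overlap for 3, which held for 30.3% of all genes. The members' median log2 fold change was 0.06, beside -0.00 for all genes.

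Inhba, which in brain is known as an activity-dependent neuronal gene, measured 3.11, 3.78 and 3.85 CPM in cachectic and 4.44, 8.13 and 7.52 CPM in normal hypothalamus. Normal mouse 1 was the lowest of its group but above every cachectic mouse. The log2 fold change was -0.90 ± 0.21 (adjusted p = 0.0256). The call was lost without cachectic mouse 1 (-0.81, adjusted p = 0.0958), cachectic mouse 3 (-0.95, adjusted p = 0.0637), normal mouse 2 (-0.72, adjusted p = 0.1055) or normal mouse 3 (-0.81, adjusted p = 0.0765), and with TPM (-0.52, adjusted p = 0.128). Mean levels of Inhba were 0.673 TPM in cachectic and 1.217 TPM in normal hypothalamus, where the constant of 0.5 added to TPM shrinks a change. The pan-neuronal markers Snap25 and Syt1 differed little, with log2 fold changes of -0.01 and 0.08, whereas Agrp and Npy were higher by 2.82 and 2.48 and Pomc had a log2 fold change of -1.57. Neutrophil markers were higher in hypothalamus too, 6 of the 7 tested, with a sum of 13.8 to 101 against 4.41 to 5.77 CPM. These 6 lay at 0.290 CPM or less in normal mice and reached the minimum count for testing only through the cachectic group. The astrocyte gene Aqp4 and the myelin gene Mbp were lower. The part of all these markers in the Inhba result was not tested.

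Fst and Smad7 had separate groups in hypothalamus without being called. Fst measured 1.32, 1.59 and 1.34 CPM in cachectic and 0.949, 0.857 and 1.20 CPM in normal mice, higher in all 3 cachectic mice (log2 fold change 0.50 ± 0.21, adjusted p = 0.178), from 28 to 70 counts per library. Smad7 measured 17.5, 16.5 and 17.0 CPM against 21.4, 20.4 and 18.0 CPM, lower in all 3 cachectic mice (-0.23 ± 0.08, adjusted p = 0.0984).

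The remaining hypothalamic members overlapped between groups. Acvr1b, the most abundant, measured 125.0, 119.5 and 114.5 CPM in cachectic and 115.7, 105.8 and 110.4 CPM in normal mice (log2 fold change 0.11 ± 0.05, adjusted p = 0.215). Smad3 measured 21.2, 24.6 and 22.5 CPM against 21.3, 22.8 and 21.2 CPM (0.06 ± 0.08, adjusted p = 0.658). Fstl1 measured 20.0, 23.5 and 20.6 CPM against 18.5, 17.8 and 21.3 CPM (0.15 ± 0.09, adjusted p = 0.335). None of the 3 members called in muscle was thus called in brain. Fstl3 (0.30 ± 0.20, adjusted p = 0.391), Acvr2a (-0.01 ± 0.07, adjusted p = 0.973) and Acvr2b (-0.06 ± 0.19, adjusted p = 0.875) were not called either, with levels of 1.45 to 2.42, 47.2 to 55.1 and 2.15 to 3.53 CPM across the 6 libraries.

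Whether a member responded differently in the tissues was tested directly as an interaction of tissue and cachexia over all 12 libraries, the gastrocnemius log2 fold change minus that in hypothalamus. Of the 10 members 4 were called, 2 in each direction, beside 26.4% of the 18746 genes tested (12.4% higher and 14% lower). Mstn was among the 10 only through its muscle counts. Its interaction of -1.325 ± 0.921 (adjusted p = 0.3265) rests on hypothalamic counts too few for a test there, so it cannot show whether Mstn responded differently. The change of Acvr1b was more positive in gastrocnemius by 1.26 ± 0.29 (adjusted p = 0.00657). Fstl1 and Smad3 had interactions of -1.32 ± 0.21 (adjusted p = 0.000714) and -1.12 ± 0.22 (adjusted p = 0.00249). Smad7, called in neither tissue alone, had an interaction of 0.56 ± 0.15 (adjusted p = 0.0150), with all 3 cachectic values above the normal ones in muscle and below them in hypothalamus. This Smad7 call was lost without a filter on low counts (adjusted p = 0.0507), without the gastrocnemius of normal mouse 2 (0.48, adjusted p = 0.0572) and without that of normal mouse 3 (0.45, adjusted p = 0.0539). For Inhba the interaction was 0.05 ± 0.41 (adjusted p = 0.983), and with an error of that size a difference of several standard errors can also miss the threshold.

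The wider pathway was described with 7 lists of 82 genes in all, members included. These lists too were chosen with earlier results of these data known, so their shares beside all genes are a description only. In gastrocnemius 74 were tested, and 18 were called higher and 19 lower (50%, beside 38% of all genes), with a median log2 fold change of -0.19. In hypothalamus 76 were tested, and 2 were called higher and 6 lower (10.5%, beside 8.77%). The lists are given below by role. Their counts stand beside 19.6% of all genes called higher and 18.3% lower in gastrocnemius, and 3.94% and 4.83% in hypothalamus.

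Of 11 ligand genes 8 were tested in gastrocnemius, and Inhbb was the one called higher and Gdf11 the one called lower. Tgfb1, the gene of TGF-β1, measured 9.49, 6.27 and 7.98 CPM in cachectic against 7.45, 9.38 and 10.3 CPM in normal muscle and overlapped (-0.19 ± 0.19, adjusted p = 0.477). In hypothalamus 8 ligand genes were tested and 2 were called, both lower. Gdf11 measured 32.3, 38.7 and 37.6 CPM against 54.1, 50.6 and 46.8 CPM there, a log2 fold change of -0.48 ± 0.08 (adjusted p = 0.00565), so Gdf11 fell in both tissues, with an interaction of -2.86 ± 0.23 (adjusted p = 9.84e-06). Inhbb measured 5.73, 6.24 and 4.73 CPM against 7.80, 7.83 and 6.35 CPM in hypothalamus and was not called (-0.41 ± 0.14, adjusted p = 0.0914). Tgfb1 had a log2 fold change of 0.02 there (adjusted p = 0.963).

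Of 8 receptor genes tested in muscle, 4 were called higher and 1 lower, with a median of 0.25. Besides Acvr1b, the type I receptor gene Tgfbr1 rose 1.93-fold (0.95 ± 0.15, adjusted p = 0.00195), from 23.5 to 29.9 CPM in normal to 44.7 to 58.3 CPM in cachectic mice. Tgfbr3, the gene of the co-receptor betaglycan, had a log2 fold change of 0.54 ± 0.13 (adjusted p = 0.0134), a call lost without normal mouse 1 (adjusted p = 0.0623) or normal mouse 2 (adjusted p = 0.0547). Acvr1c, the gene of the type I receptor ALK7, fell 6.56-fold (-2.71 ± 0.46, adjusted p = 0.00296) at levels below 1 CPM in every muscle library, and was not called with TPM (-0.13). The constant of 0.5 added to TPM weighs on such levels. A filter of at least 1 CPM in 3 libraries left Acvr1c untested in muscle. Acvr1c is expressed in fat cells, and 5 of 6 adipocyte markers were lower in the same muscles, with a sum of 108.9 to 130.1 against 188.9 to 242.2 CPM; their part in the Acvr1c result was not tested. In hypothalamus 1 of 8 receptor genes was called: Tgfbr3 was higher (0.40 ± 0.10, adjusted p = 0.0361), and this call was lost when any 1 of the 6 mice was left out (adjusted p from 0.0553 to 0.112) and with TPM (adjusted p = 0.232).

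Of 10 genes listed as extracellular inhibitors, 1 was called higher and 4 lower in muscle, with a median of -0.26. A place in this list does not show that a gene's product inhibits myostatin or activin. Fmod, the gene of the proteoglycan fibromodulin, fell 12.2-fold (-3.61 ± 0.29, adjusted p = 0.000204), from 91.3 to 181.6 CPM in normal to 10.2 to 14.5 CPM in cachectic muscle. Fmod also stands in the tendon cell list, 4 of whose 5 genes fell. Igsf1, which encodes a membrane glycoprotein of the immunoglobulin superfamily, fell 12.6-fold in muscle (-3.65 ± 0.49, adjusted p = 0.00117) at 1.57 CPM or less, and its log2 fold change was -4.26 without cachectic mouse 3 and -0.78 with TPM. Muscle Igsf1 was too low to be tested under a filter of at least 1 CPM in 3 libraries. The constant of 0.5 weighs on its TPM value. In hypothalamus, where Igsf1 is abundant, it fell from 112.5 to 121.6 CPM to 65.4 to 80.8 CPM (-0.73 ± 0.08, adjusted p = 0.000606). It was the single gene called there of the 10 in this list. Summed anterior pituitary markers, a tissue in which Igsf1 is also expressed, were 8.90 to 11.3 CPM in cachectic and 4.82 to 7.12 CPM in normal hypothalamus, with Prl, Fshb and Lhb below 1 CPM throughout. Most of that difference was Cga, at 4.29 to 6.63 against 0.581 to 1.42 CPM and the one called of the 2 pituitary markers tested; Tshb was not called (adjusted p = 0.1025). Gh was at most 0.179 CPM in cachectic and up to 2.98 CPM in normal mice, and the part of these markers in the Igsf1 result was not tested. Wfikkn1, a myostatin-binding protein gene, had a log2 fold change of 1.43 ± 0.37 in muscle (adjusted p = 0.0172) at less than 1 CPM. This call was lost without cachectic mouse 1 (adjusted p = 0.0602) or without normal mouse 1, 2 or 3 (adjusted p = 0.0558, 0.0527 and 0.0646). With TPM it was 0.53 and called, and under the filter of at least 1 CPM in 3 libraries it was not tested.

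Of the genes that process the ligands or hold them latent, 2 were called higher and 5 lower of 10 tested in muscle (median -0.52). In hypothalamus edgeR called 0 of 11, with 3 at an unadjusted p below 0.05, and DESeq2 called 1. Pcsk6, a proprotein convertase gene, fell 3.70-fold (-1.89 ± 0.16, adjusted p = 0.000277; -1.21 with TPM and still called). Ltbp4, which encodes a latent TGF-β binding protein, fell 2.97-fold (-1.57 ± 0.14, adjusted p = 0.000286). Bmp1, the gene of a protease of the family that cleaves the myostatin propeptide, fell 2.06-fold (-1.04 ± 0.17, adjusted p = 0.00257). Itgav, the gene of integrin αV, fell 1.74-fold (-0.80 ± 0.11, adjusted p = 0.00109) but was not called with TPM (-0.27, adjusted p = 0.268). The fibroblast marker sums given above were lower in the same 3 mice, and their part in these falls was not tested.

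Of 16 Smad genes and regulators, 2 were called higher and 3 lower in muscle (median -0.06). Next to Smad3 and Smad4, the co-repressor gene Tgif1 rose 3.12-fold (1.64 ± 0.33, adjusted p = 0.00591), from 4.64 to 10.5 CPM to 14.8 to 25.3 CPM. Skil, the gene of the Smad co-repressor SnoN, fell 1.81-fold (-0.85 ± 0.15, adjusted p = 0.00312) and was not called with TPM (-0.39, adjusted p = 0.122). In hypothalamus 1 of 16 was called: Pmepa1, a feedback inhibitor gene, was lower (-0.43 ± 0.09, adjusted p = 0.0164), a call lost without cachectic mouse 3 (adjusted p = 0.0708), normal mouse 2 (adjusted p = 0.0742) or normal mouse 3 (adjusted p = 0.0531). Smad4 and Smad2 had hypothalamic log2 fold changes of -0.05 and -0.14 and were not called (adjusted p = 0.717 and 0.168).

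Textbook target genes of Smad3 were called in both directions in muscle, as were genes in general. Of 10 tested in gastrocnemius, 3 were called higher and 2 lower (median 0.21). That is 50%, beside 38% of all genes. Ankrd1, a stress-responsive muscle gene, rose 19.9-fold (4.31 ± 0.33, adjusted p = 0.000165), from 4.51 to 7.11 CPM in normal to 71.6 to 160.7 CPM in cachectic muscle. Cdkn1a, which encodes the cell cycle inhibitor p21, rose 9.38-fold (3.23 ± 0.24, adjusted p = 0.000162). Both genes are also controlled by other pathways. Skil, counted in this list as well, fell. In hypothalamus 9 were tested, and Ccn2, a matricellular protein gene, rose 2.44-fold (1.28 ± 0.13, adjusted p = 0.000491) while Pmepa1 fell.

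**Figure D4:**
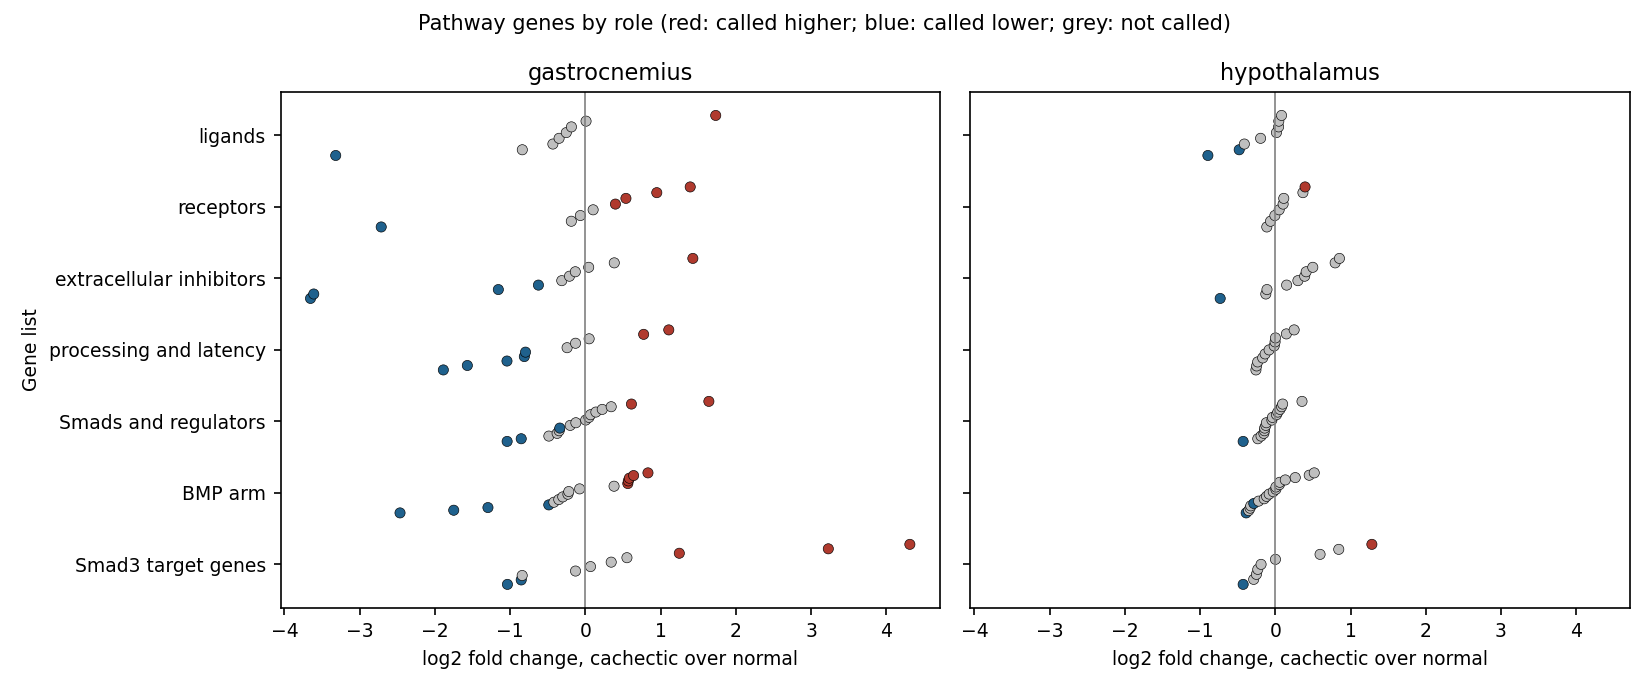
Log2 fold change of each tested pathway gene, cachectic over normal, by role list, in gastrocnemius (left) and hypothalamus (right); red and blue mark genes called higher and lower, grey the others, and a gene in 2 lists appears in both. Gastrocnemius values spread from -3.65 (Igsf1, at a low level in muscle) to 4.31 (Ankrd1), and hypothalamus values lay closer to 0.

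The genes most like a member across the 6 libraries of a tissue were found by Pearson's r of log2 CPM, among genes with a mean of at least 3, as a description without a test, since these libraries share the group difference and their depth. In gastrocnemius, among 7408 genes, those most like Mstn were Egfr (r = 0.977), Pdcd10 (r = 0.948) and Sh2b3 (r = 0.939). Those most like Fstl1 were Slc41a3 (r = 0.994), Mrpl3 (r = 0.993) and Prelp (r = 0.992). In hypothalamus, among 10999 genes, those most like Inhba were Gm15459 (r = 0.998), Eif3j2 (r = 0.997) and Hspe1 (r = 0.996); Eif3j2 has a near-identical copy, so its counts are uncertain.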

How the data were processed

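Libraries from gastrocnemius and hypothalamus of 6 mice were made with a directional kit and sequenced with paired 100-base reads, per the labels' protocols. Trim Galore 0.6.6, STAR 2.7.9a, RSEM 1.3.3 and GRCm38 are named in the submitters' processing notes; the strand setting and annotation release are not given in the sources used here. The authors deposited RSEM expected counts, TPM and FPKM per gene; FPKM were not used. Gene symbols and positions came from the GENCODE mouse release 21 annotation by identifier.

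Expected counts were rounded and tested with edgeR 4.0.16 (R 4.3.3): filterByExpr, TMM scaling within the fit, quasi-likelihood test, Benjamini-Hochberg adjustment over all genes, threshold 0.05. CPM are TMM-scaled within a tissue. The SE of an edgeR log2 value is its absolute size divided by the square root of the test's F statistic. Each tissue was fitted alone, the interaction over 12 libraries. Alternatives were library totals, DESeq2 1.42.0 and its size factors, no filter, at least 1 CPM in 3 libraries, limma 3.58.1 on log2(TPM + 0.5), a replicate block and leaving out each library. The procedure was tested on simulated data. Library totals were 26015741 to 52535761 counts; mice of a group differed beyond counting error (chi-square per gene 6.29 to 177.4). All libraries were used, none was a duplicate of another, and within a tissue a p-value measures the spread between 3 mice per group. The main fits of the interaction and of the normal tissues had no mouse term, so they treated both libraries of a mouse as independent.

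Replicate numbers name the same mouse in both tissues, per the labels; deviations of the same mouse correlated at -0.103 to 0.167.

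Named genes were all members, up to 4 called genes with the smallest p per list and tissue, Gdf11, Inhbb, Tgfb1, Smad2 and Smad4, and the 3 genes most like Mstn and the member with the smallest p in each tissue; a gene of the lists that met this rule is not reported here. The members and lists were chosen with earlier results of these data known.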

Additional observations from a re-analysis of the deposited data

Results flagged for a closer look

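For 23 of the 35 named genes tested in both tissues, the change with cachexia differed between gastrocnemius and hypothalamus in the interaction test of edgeR (adjusted p below 0.05; 26.4% of all genes were called). Values below are the gastrocnemius minus the hypothalamus log2 fold change. Most of these genes were named because they were called in 1 of the tissues, so the share says little in itself.

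The 4 members were Acvr1b (1.26), Fstl1 (-1.32), Smad3 (-1.12) and Smad7 (0.56). Ligand genes that differed were Gdf11 (-2.86) and Inhbb (2.13), the latter higher in cachectic muscle and, uncalled, lower in cachectic hypothalamus. Receptor genes were Acvr1c (-2.85) and Tgfbr1 (1.05). In the extracellular inhibitor list they were Fmod (-4.48) and Igsf1 (-2.96). The -2.96 of Igsf1 is a difference between falls in both tissues. Processing and latency genes were Pcsk6 (-1.65), Ltbp4 (-1.42), Bmp1 (-0.98) and Itgav (-1.06). Intracellular genes were Smad4 (0.64), Skil (-0.68) and Tgif1 (1.75), and of the Smad3 target genes Cdkn1a (2.38) differed. In the BMP arm they were Bmp2 (-1.41), Bmp7 (-2.43), Bmpr1b (0.84), Smad1 (0.54) and Nog (0.76).

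The calls of Acvr1c (-0.14), Bmp7 (-0.16), Bmp2 (-0.34), Skil (-0.18) and Igsf1 (-0.02) were lost with TPM, and that of Skil also with library totals (-0.49). The constant of 0.5 added to TPM shrinks changes at the low muscle levels of Acvr1c, Bmp7, Igsf1 and Bmp2. In muscle alone Igsf1 went from -3.65 to -0.78 and Bmp2 from -1.75 to -0.63. TPM therefore cannot decide whether these genes differ between tissues. Fmod became -3.56 without the hypothalamus of cachectic mouse 2, and Igsf1 became -3.55 without the gastrocnemius of cachectic mouse 3. Nog lost its call when any 1 of the 12 libraries was left out except the gastrocnemius of cachectic mouse 1, with adjusted p from 0.0571 to 0.1075, and with each mouse kept as a block (0.0635). Smad1 lost it without the gastrocnemius of normal mouse 2 (adjusted p = 0.0580) or 3 (0.0920), the hypothalamus of cachectic mouse 1 (0.0515) or 2 (0.0688), or that of normal mouse 2 (0.0755), and without a filter on low counts (0.0510).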

How the results depend on the processing

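The calls of Acvr1b, Fstl1 and Smad3 in gastrocnemius held under every alternative run. Over the members, 116 of 130 alternative values in gastrocnemius and 102 of 117 in hypothalamus kept direction and side of the threshold; the values that turned sign belonged to uncalled genes, apart from the tissue comparison. In gastrocnemius these were Acvr2a (0.11 with library totals, 0.28 with TPM), Fst (0.05 and 0.19), Fstl3 (0.04 with TPM), Mstn (0.17 with TPM) and Tgfb1 (0.03 and 0.21). In hypothalamus they were Acvr2a (0.02 with library totals, 0.0005 with DESeq2 size factors, 0.0004 with DESeq2, 0.0000 without a filter, 0.01 with at least 1 CPM) and Smad4 (0.02 with TPM). The interaction of Acvr2a became 0.09 with library totals and 0.30 with TPM. Between normal tissues library totals and TPM gave Acvr2a -0.49 and -0.64, both called lower. They gave Acvr2b -0.06 and -0.25 and Fstl3 -0.02 and -0.20, none of them called.

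Leaving out each library in turn, gastrocnemius values ranged from -0.24 to 0.05 for Acvr2a, -0.1 to 0.21 for Acvr2b, -0.38 to 0.08 for Fst and -0.47 to 0.04 for Mstn, and genes called from 3547 (without normal mouse 1) to 5450. Hypothalamus values ranged from -0.07 to 0.04 for Acvr2a, -0.25 to 0.1 for Acvr2b and -0.06 to 0.16 for Tgfb1, members called from 0 to 1 and genes called from 576 (without normal mouse 2) to 1266. Interactions ranged from -0.28 to 0.06 for Acvr2a, -0.1 to 0.37 for Acvr2b and -0.23 to 0.3 for Inhba.

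In hypothalamus limma on TPM called 0 members, with 4 at an unadjusted p below 0.05 (DESeq2 called 1), and 520 genes, against 2598 without a filter and 1575 in the analysis reported. Within a tissue the numbers do not pair the samples by design, since cachectic and normal mice are different animals. Same-numbered deviations correlated at -0.057, 0.182 and 0.259 in gastrocnemius and -0.103, -0.025 and 0.000 in hypothalamus. Different-numbered ones ran from -0.249 to 0.100 and from -0.075 to 0.090. The gastrocnemius values of 0.182 and 0.259 were thus above all different-numbered ones. With the replicate block 4 gastrocnemius members were called instead of 3, Inhba crossing the threshold (-0.83, adjusted p = 0.0417), with 5721 genes; in hypothalamus 1 member and 1111 genes, with the calls of Tgfbr3 (adjusted p = 0.0663) and Bmpr1b (0.0704) lost. Across tissues, where the mouse is the same, the block left 4 members called in the interaction and 8 between tissues. Inhba, with 19 to 65 counts in each muscle library, and Fstl3, with 28 to 77, rest on few counts.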

Other observations

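The BMP arm, the branch of the superfamily that signals through Smad1 and Smad5 and is known to support muscle mass, had 16 genes tested in gastrocnemius, and 5 were called higher and 4 lower (56.2%, beside 38% of all genes; median log2 fold change -0.23). The ligand gene Bmp2 fell 3.36-fold (-1.75 ± 0.23, edgeR adjusted p = 0.00107), from 2.31 to 2.64 CPM in normal to 0.657 to 0.867 CPM in cachectic muscle (-0.63 with TPM and still called). Bmp7 fell 5.52-fold (-2.46 ± 0.39, adjusted p = 0.00224) at under 1 CPM in every muscle library, and was not called with TPM (-0.25, adjusted p = 0.0586). Smad1 was higher (0.56 ± 0.15, adjusted p = 0.0180), a call lost without normal mouse 2 (adjusted p = 0.0501) or 3 (adjusted p = 0.0606). Nog, the gene of the BMP antagonist noggin, was higher (0.83 ± 0.23, adjusted p = 0.0220), a call lost without cachectic mouse 3 (adjusted p = 0.0636) or normal mouse 1, 2 or 3 (adjusted p = 0.0746, 0.0648 and 0.0529).

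In hypothalamus 2 of 18 BMP arm genes were called, both receptors and both lower. Acvr1 measured 15.8 to 16.5 CPM in cachectic and 20.0 to 22.2 CPM in normal mice (-0.39 ± 0.07, edgeR adjusted p = 0.00999), and its call was lost with TPM (-0.36, adjusted p = 0.0648). Bmpr1b measured 15.2 to 16.3 against 19.4 CPM in all 3 normal mice (-0.29 ± 0.07, adjusted p = 0.0299), a call lost when any 1 mouse was left out (adjusted p from 0.0559 to 0.103) and with TPM (adjusted p = 0.140). In muscle Bmpr1b was higher, at 8.17 to 10.7 against 5.40 to 7.26 CPM (0.57 ± 0.17, adjusted p = 0.0303), a call lost without cachectic mouse 1 (adjusted p = 0.0865), normal mouse 1 (adjusted p = 0.103) or normal mouse 3 (adjusted p = 0.0996). Muscle Acvr1 was lower (-0.49 ± 0.15, adjusted p = 0.0378), and lost its call with library totals (-0.29), with TPM (-0.10) and without 5 of the 6 mice (adjusted p from 0.0522 to 0.146), remaining called without normal mouse 3.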
